A study of Mus musculus with 6 samples.

Results

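Metallothioneins are small cysteine-rich proteins that bind zinc and copper, and with the zinc-sensing factor MTF-1 and the zinc transporters they set how much free zinc a cell holds. The genes described here were the metallothionein genes Mt1 and Mt2, the sensor gene Mtf1, the zinc exporter gene Slc30a1 and the zinc importer gene Slc39a10. They were chosen by gene name from the deposited FPKM table (fragment counts scaled for transcript length and for library size), and 5 of 5 were present among its 11175 genes. All 5 had a mean of at least 1 FPKM over the libraries, the level required for testing.

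The libraries came from CD8+ T cells, the T lymphocytes that kill infected and tumour cells, of wild-type (WT) mouse spleen. All 6 cultures were activated for 48 h with antibodies to CD3, which signals for the antigen receptor, and to CD28, which gives costimulation. The 3 control libraries had no added compound, and the 3 DOPAC libraries came from cells cultured with 3,4-dihydroxyphenylacetic acid, a catechol made when dopamine is broken down. The sources used here give neither strain, age and dose of DOPAC nor whether replicates were separate animals or cultures. The p-values therefore reflect the spread among these 6 libraries, and that spread may be technical. The comparison asked how DOPAC altered transcripts of activated CD8+ T cells.

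Zinc entering the cytosol is bound by metallothioneins, and a rise in free zinc lets MTF-1 bind metal response elements in the promoters of its target genes. MTF-1 is known to induce Mt1, Mt2 and Slc30a1 and to repress Slc39a10. T cells take up zinc when the antigen receptor is engaged, and metallothionein genes are also known to respond to glucocorticoids, oxidants and copper.

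The promoters of 3 members are shown because the core of the metal response element lies in them. The sequences come from RefSeq on GRCm38.p6, where all 5 members were matched by symbol. They are the 250 bases before the annotated start on the plus strand, at chr8:94178839-94179088 for Mt1, chr8:94172368-94172617 for Mt2 and chr1:191906531-191906780 for Slc30a1. The 30 bases that follow the start are added for Mt1 (chr8:94179089-94179118) and Mt2 (chr8:94172618-94172647). For Mt2 these bases end before the gene start of the GENCODE annotation used below (94172664). Before and after therefore refer to the RefSeq start only. Capitals mark matches to TGCACNC or TGCGCNC on either strand.
Mt1 before the start: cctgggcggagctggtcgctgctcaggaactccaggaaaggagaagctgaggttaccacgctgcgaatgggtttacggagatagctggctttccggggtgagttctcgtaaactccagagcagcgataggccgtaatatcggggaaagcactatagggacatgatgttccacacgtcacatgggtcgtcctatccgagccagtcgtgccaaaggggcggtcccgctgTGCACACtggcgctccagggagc
Mt1 after the start: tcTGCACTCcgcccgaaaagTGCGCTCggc
Mt2 before the start: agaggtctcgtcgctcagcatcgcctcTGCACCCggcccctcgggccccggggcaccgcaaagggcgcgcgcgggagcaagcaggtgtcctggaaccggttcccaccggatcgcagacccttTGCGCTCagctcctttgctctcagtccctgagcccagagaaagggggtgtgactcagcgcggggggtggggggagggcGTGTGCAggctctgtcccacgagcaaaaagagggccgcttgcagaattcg
Mt2 after the start: ggtcGTGCGCAggcccaggggcgtgtgctg
Slc30a1 before the start: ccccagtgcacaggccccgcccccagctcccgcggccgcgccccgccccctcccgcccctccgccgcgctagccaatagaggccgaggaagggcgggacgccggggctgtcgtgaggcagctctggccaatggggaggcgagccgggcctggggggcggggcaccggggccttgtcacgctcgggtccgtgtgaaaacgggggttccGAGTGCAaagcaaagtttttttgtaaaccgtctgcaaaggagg

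Over windows of 300 bases, 250 before and 50 after the start, Mt2 had 4 matches, Mt1 had 3 and Slc30a1 had 2, none of which overlapped. Slc30a1 had its second match after the start, beyond the sequence shown. Of 32851 RefSeq windows of this length, 25.7% held at least 1 match, 7.11% at least 2, 1.97% at least 3 and 0.517% at least 4. Neither the window of Mtf1 nor either of the windows of Slc39a10 held these letters. Before their starts the Slc39a10 windows cover chr1:46925777-46926026 and chr1:46853619-46853868. The first lies outside the GENCODE gene (46807544 to 46892852, minus strand) and the second inside it. No window at the GENCODE start of Slc39a10 was examined. The counts hold for the RefSeq starts used, also for Mt1, and matches near other starts of a gene would be missed. A match is a description of the sequence and no measurement of MTF-1 binding.

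Mt1 and Mt2 lie side by side on chromosome 8 (GENCODE M21 on GRCm38, also called mm10). Mt2 spans 94172664 to 94173568 and Mt1 94179082 to 94180327, both on the plus strand and 5513 bp apart. Their transcripts share no run of bases longer than 20, and 0 of the 50-base stretches of Mt1 transcripts occurred in another gene's transcripts. The Mt2 exons overlap the antisense gene Gm45774, which holds 45.8% of the 50-base stretches of Mt2. The library kit does not mark strand, so the reads of such a pair cannot be told apart. Antisense overlaps were also found for Mtf1 (1110065P20Rik, 7.55%) and Slc30a1 (1700034H15Rik, 8.01%).

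The cells carried their T cell markers in both groups. The 7 fixed T cell genes, among them Cd8a and Cd3e, summed to 716 to 778 FPKM in control and 695 to 787 FPKM in DOPAC libraries. Of 6 macrophage markers 2 were among the genes with values, Lyz2 and Cd68. Their sum was 14.2 to 33.8 FPKM in control and 4.45 to 12.4 FPKM in DOPAC libraries. The 3 collagen markers of fibroblasts summed to 25.7 to 27.9 FPKM in the controls, 0.330 FPKM in DOPAC replicate 1 and 15.5 and 16.0 FPKM in the other DOPAC libraries. Of 3 erythroid markers 2 had values, at 2.72 to 10.4 FPKM in control and 0.280 to 3.02 FPKM in DOPAC libraries. Of 4 B cell markers 1 had values, at 1.54 to 2.49 and 1.47 to 2.61 FPKM. The fixed CD4, natural killer and neutrophil markers were not among the genes with values, and the gene filter behind that is unknown. In bulk RNA fewer cells of a type and less RNA per cell cannot be told apart, and the part of these cells in the results was not tested.

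Control replicate 1 stood apart from the other libraries, and it did so by gene length. Deviations are from the mean of the other 5 libraries on the log2(FPKM + 1) scale. In control replicate 1 the median by bases of exon was 0.34 up to 500 and 0.60 over 500 and up to 1000. It was 0.26 over 1000 and up to 2000, and -0.12 over 2000 and up to 4000. Longer genes had -0.43 over 4000 and up to 8000, and -0.67 above 8000. Summed exon length was 588 bases for Mt2 and 1246 for Mt1, and 5244, 6095 and 8907 for Slc30a1, Slc39a10 and Mtf1. The Mt1 sum is longer than any of its annotated transcripts (549, 633 and 1085 bases), whose exons join into 1 block. Fits with the length trend removed used these summed lengths. The 2 metallothionein genes were high in that library and the other 3 members low, so fold changes are given with and without it.

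**Figure D1:**
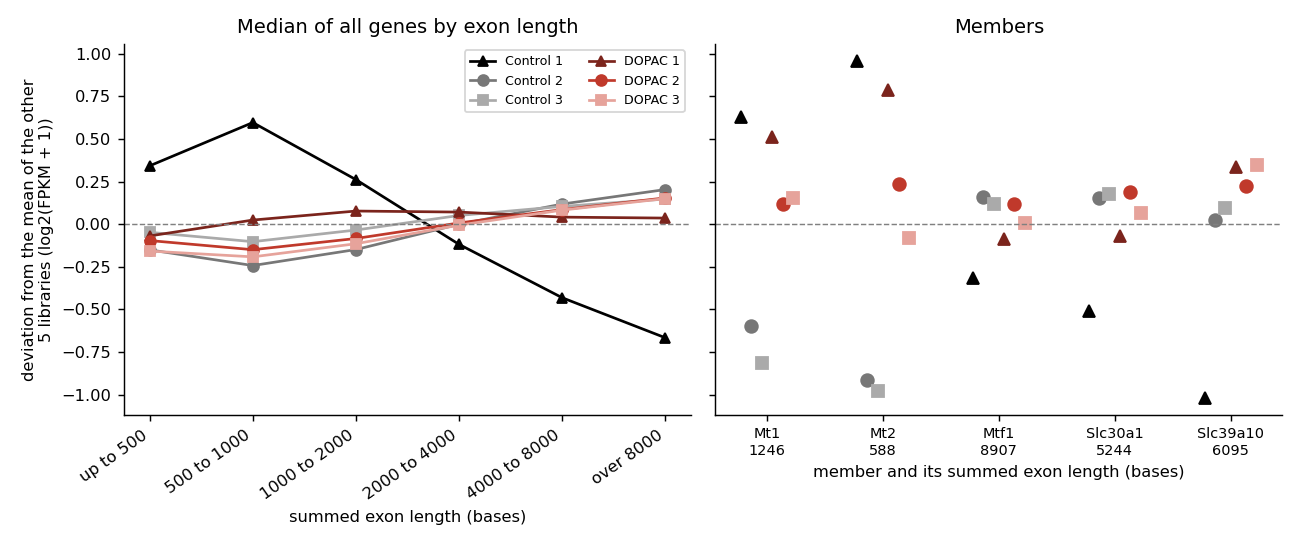
Left, the median deviation of each library from the mean of the other 5 on the log2(FPKM + 1) scale, for all tested genes grouped by summed exon length in bases; right, the same deviation for each member, with its exon length under its name. Control 1 is at 0.60 for genes of 500 to 1000 bases, 0.26 for 1000 to 2000, -0.43 for 4000 to 8000 and -0.67 above 8000 bases. In it Mt2 and Mt1 sit at 0.96 and 0.63, Slc30a1 and Slc39a10 at -0.51 and -1.02, and Mtf1 at -0.32. Not every member sits at the median of its length group.

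In 2 of the 3 controls both metallothionein transcripts were lower than in every DOPAC library, and in control replicate 1 they were higher than in any other library. Without control replicate 1, 15.3% of all genes likewise had every DOPAC library above the controls. No member passed the test in any fit. Mt1 averaged 12.4 ± 6.51 FPKM in control and 16.0 ± 2.19 FPKM in DOPAC libraries, and Mt2 8.49 ± 6.59 and 11.0 ± 3.14 FPKM (SD, n = 3 each). Without control replicate 1 the control means were 8.67 ± 0.863 and 4.69 ± 0.147 FPKM (SD, n = 2). Mtf1 and Slc30a1 differed little between the groups. Slc39a10 was higher in all 3 DOPAC libraries than in all 3 controls, as for 12.4% of all genes.

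By limma's moderated test with Benjamini-Hochberg adjustment over 10887 genes, 0 of the 5 members and 0 of all genes (0%) had an adjusted p under 0.05. Unadjusted, 0 members and 456 genes (4.19%) had a p under 0.05, 2.73% higher and 1.46% lower with DOPAC. All 5 members had a positive log2 fold change, as did 62.1% of all genes, with a median of 0.43 over the members and 0.066 over all genes. Without control replicate 1 the test again called 0 members, against 2 of all genes (0.0184%; Gm49510 and Spp1, named after their values were seen), and 3 members had an unadjusted p under 0.05, all higher with DOPAC. Of all genes 14.5% had such a p, 5.57% higher and 8.89% lower. Of the members 3 then had positive values, against 47.3% of all genes, with medians of 0.20 and -0.011.

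**Figure D2:**
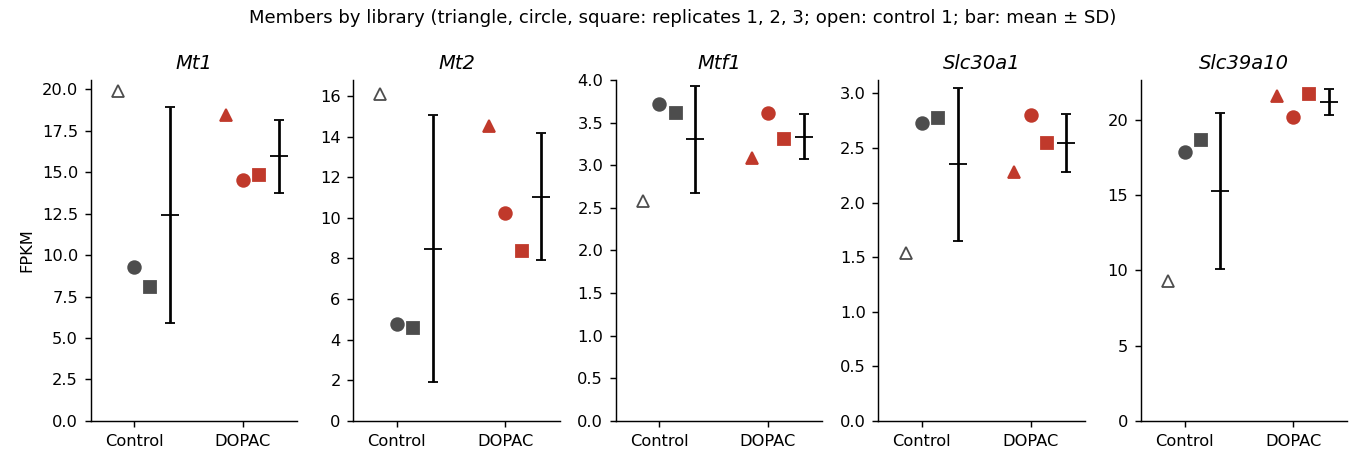
FPKM of each member in every library, with its own axis from 0 for each gene; triangles, circles and squares are replicates 1, 2 and 3, the open triangle is control 1, and bars give the mean ± SD of 3 libraries. Control 1 is the highest library for Mt1 (19.9 FPKM) and Mt2 (16.1 FPKM) and the lowest for Mtf1, Slc30a1 and Slc39a10.

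Among the metallothioneins, Mt1 encodes one of the 2 broadly expressed forms. It measured 19.9, 9.28 and 8.06 FPKM in control replicates 1, 2 and 3 and 18.5, 14.5 and 14.9 FPKM in DOPAC replicates 1, 2 and 3. The groups overlapped through control replicate 1 only. The other 2 controls lay below all 3 DOPAC libraries, as for 15.3% of all genes. The log2 fold change of Mt1, with the 95% interval of the limma model, was 0.43 (-0.33 to 1.19; adjusted p = 0.801). Without control replicate 1 it was 0.81 (0.50 to 1.11; unadjusted p = 0.00065, limma adjusted p = 0.295), a ratio of means of 1.84. Without control replicate 3 it was 0.20.

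Mt2 encodes the other broadly expressed form. It measured 16.1, 4.79 and 4.58 FPKM in control replicates 1, 2 and 3 and 14.5, 10.2 and 8.37 FPKM in DOPAC replicates 1, 2 and 3. As for Mt1, control replicate 1 was the highest of all 6 libraries. The other 2 controls were the lowest, again as for 15.3% of all genes. The log2 fold change of Mt2 was 0.52 (-0.56 to 1.60; limma adjusted p = 0.801). Leaving out control replicate 1 gave 1.05 (0.55 to 1.56; unadjusted p = 0.0023, limma adjusted p = 0.295), a ratio of means of 2.36. It was 0.27 and 0.24 without control replicates 2 and 3, and 0.32 without DOPAC replicate 1.

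DOPAC replicate 1 held the most metallothionein RNA of its group. With it and control replicate 1 both left out, so with 2 libraries against 2, Mt1 stood at 0.70 (0.49 to 0.91) and Mt2 at 0.85 (0.59 to 1.12) on the log2 scale, each with a limma adjusted p of 0.139. With the trend of expression on gene length removed in each library and control replicate 1 left out, Mt1 had 0.76 and Mt2 1.02 (limma adjusted p = 0.234 for both). Like the fit of 2 libraries against 2, this one was chosen after seeing the data. With that trend removed and all 6 libraries kept, Mt1 stood at 0.51 (-0.037 to 1.05) and Mt2 at 0.65 (-0.15 to 1.45). Their limma adjusted p were 0.474 and 0.514. In control replicates 2 and 3 the median deviation of genes with over 500 and up to 1000 bases of exon was -0.24 and -0.10, and in DOPAC replicates 1, 2 and 3 it was 0.024, -0.15 and -0.19. Mt2, which is in that range of length, deviated by -0.92 and -0.98 in those controls and by 0.79, 0.23 and -0.083 with DOPAC. For genes over 1000 and up to 2000 bases the medians were -0.15 and -0.035, and 0.077, -0.084 and -0.12. Mt1, in that range, deviated by -0.60 and -0.82, and by 0.51, 0.12 and 0.15. Control replicate 1 is part of the mean behind all these deviations, and the part of gene length in the differences was not tested.

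Both metallothionein genes ordered the libraries almost alike, with a Pearson's r of 0.980 over the 6 libraries and 0.973 without control replicate 1, on values that share each library's depth and length trend. Their ratio was not constant. Mt1 was 1.24, 1.94 and 1.76 times Mt2 in control replicates 1, 2 and 3, and 1.27, 1.42 and 1.77 times in DOPAC replicates 1, 2 and 3. The group means of this ratio, 1.64 ± 0.365 and 1.49 ± 0.258 (SD, n = 3 each), differed by less than the spread between libraries. The ratio was lowest in replicate 1 of each group, the libraries with the most metallothionein RNA. The family members Mt3 and Mt4 were not among the genes with values, so their expression could not be described.

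**Figure D3:**
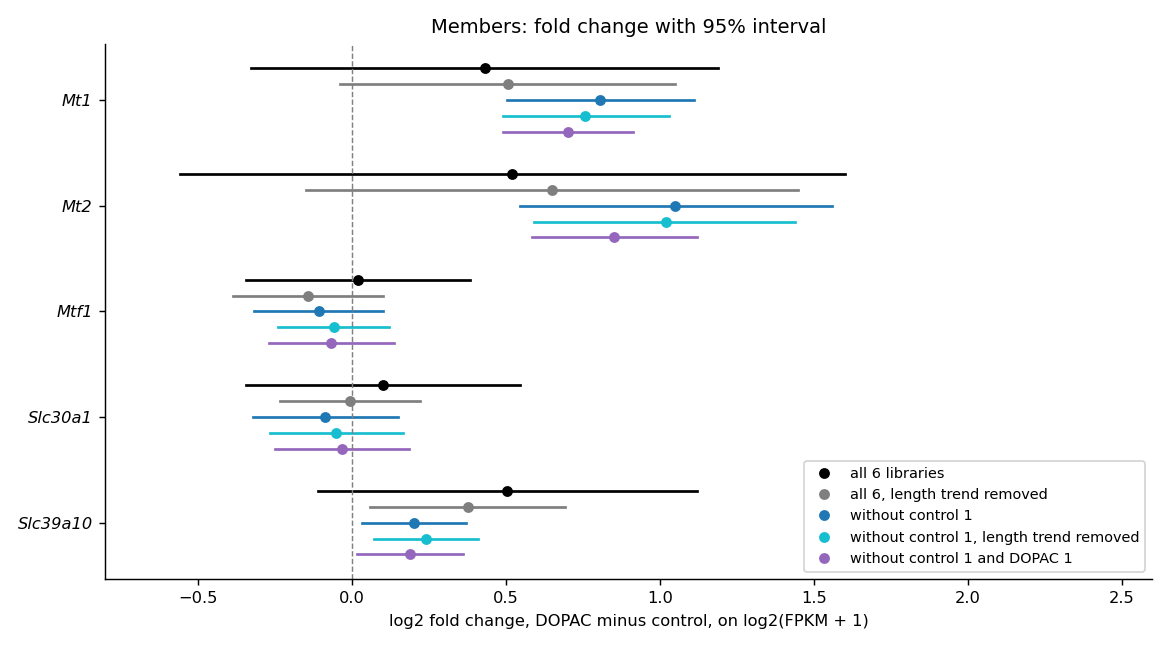
Log2 fold change of each member, DOPAC minus control on log2(FPKM + 1), with the 95% interval of the limma model (points and lines) for 5 choices of libraries and scaling. The intervals of Mt1 and Mt2 include 0 with all 6 libraries (0.43 and 0.52) and lie above 0 without control 1 (0.81 and 1.05), while those of Mtf1 and Slc30a1 include 0 throughout.

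Mtf1, on chromosome 4 at 124802104 to 124849800, encodes the zinc-sensing transcription factor itself. Its levels were 2.58, 3.72 and 3.61 FPKM in control replicates 1, 2 and 3 and 3.09, 3.61 and 3.31 FPKM in DOPAC replicates 1, 2 and 3. All DOPAC values lay within the range of the controls. The log2 fold change of Mtf1 was 0.020 (-0.34 to 0.38; limma adjusted p = 0.975), and -0.11 without control replicate 1 (-0.32 to 0.10; limma adjusted p = 0.595). Without that library all 3 DOPAC values lay below both controls, as for 21.5% of all genes, with the highest DOPAC value (3.610 FPKM) just under the lower control (3.613 FPKM).

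Slc30a1, on chromosome 1 at 191906767 to 191913247, encodes ZnT1, which exports zinc across the plasma membrane. It was read at 1.54, 2.73 and 2.78 FPKM in control replicates 1, 2 and 3 and at 2.28, 2.81 and 2.55 FPKM in DOPAC replicates 1, 2 and 3. The groups overlapped with and without control replicate 1. The estimate for Slc30a1 was 0.10 (-0.34 to 0.55; limma adjusted p = 0.882), or -0.086 without control replicate 1 (-0.32 to 0.15; limma adjusted p = 0.706). At levels this low the added pseudocount of 1 FPKM shrinks fold changes, and with a pseudocount of 0.1 the first value was 0.15.

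Slc39a10, on the minus strand of chromosome 1 at 46807544 to 46892852, encodes ZIP10, which brings zinc into the cytosol. Values were 9.31, 17.8 and 18.7 FPKM in control replicates 1, 2 and 3 and 21.6, 20.2 and 21.7 FPKM in DOPAC replicates 1, 2 and 3. Every DOPAC library lay above every control, as for 12.4% of all genes, and also without control replicate 1, as for 15.3%. The log2 fold change of Slc39a10 was 0.50 (-0.11 to 1.12; limma adjusted p = 0.801). It was 0.20 without control replicate 1 (0.03 to 0.37; unadjusted p = 0.026, limma adjusted p = 0.313), a ratio of means of 1.16 against 1.39 with all 6 libraries. Mt1 and Mt2, whose groups also did not overlap without that library, make 3 of 5 members higher in this way.

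Per length, Slc39a10 was the most abundant member over the 6 libraries at 18.2 FPKM, followed by Mt1 at 14.2, Mt2 at 9.76, Mtf1 at 3.32 and Slc30a1 at 2.45 FPKM. With DOPAC the ranges of neighbours in this order did not overlap, the closest being the lowest Mt1 value of 14.54 FPKM and the highest Mt2 value of 14.50 FPKM. In the controls the ranges of neighbours overlapped at every step except between Mt2 and Mtf1. In control replicate 1 the order was Mt1, Mt2, Slc39a10, Mtf1 and Slc30a1.

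Most zinc transporters of the SLC30 (ZnT) family, here called exporters, move zinc out of the cytosol, to the outside or into organelles. Of 10 listed genes 6 were tested and 0 passed the adjusted threshold. All 6 had positive log2 fold changes (62.1% of all genes) with a median of 0.31 (0.066 over all genes), and 3 had non-overlapping groups with DOPAC higher (12.4% of all genes). Without control replicate 1 the number of positive values was 5 (47.3% of all genes), the exception being Slc30a1. The median was then 0.11 (-0.011 over all genes) and again 3 did not overlap, all higher with DOPAC (15.3% of all genes). Slc30a1 was the least abundant of the 6 and Slc30a4 and Slc30a5 the most abundant, at 11.8 and 11.0 FPKM over all libraries.

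The product of Slc30a9 works in mitochondria, and no direction of zinc flow is read from its level. Slc30a9 measured 3.19, 5.08 and 4.55 FPKM in control replicates 1, 2 and 3. In DOPAC replicates 1, 2 and 3 it measured 6.90, 5.81 and 6.26 FPKM. As for 12.4% of all genes, all DOPAC values lay above all controls. This gave a log2 fold change of 0.49 (0.07 to 0.90; unadjusted p = 0.027, limma adjusted p = 0.801) and 0.33 without control replicate 1 (limma adjusted p = 0.295). Slc30a6 and Slc30a7, transporters of the secretory pathway, had 0.29 and 0.31, or 0.21 and 0.13 without that library. Slc30a5 had 0.31, or 0.09 without it. Slc30a7 exons overlap the antisense genes Gm43106 and Gm6649, and Slc30a4 exons overlap the antisense gene 4930417H01Rik.

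Importers of the SLC39 (ZIP) family bring zinc into the cytosol. Of 14 listed genes 11 were tested and 0 passed. Log2 fold changes were positive for 10 (62.1% of all genes), with a median of 0.16. Groups did not overlap for 2 genes higher with DOPAC and 1 lower (12.4% and 4.8% of all genes). Without control replicate 1 the numbers were 6 positive (47.3% of all genes) and 5 negative with a median of 0.018. In that fit 2 were higher and 3 lower without overlap (15.3% and 21.5% of all genes). Slc39a10 had the highest value of the list in both fits and in level it came after Slc39a7 and Slc39a1 at 29.4 FPKM each. Slc39a4, Slc39a13 and Slc39a3 had log2 fold changes of 0.20, 0.21 and -0.14, or 0.09, 0.14 and -0.15 without control replicate 1. Slc39a13 exons overlap the antisense gene Psmc3, and Slc39a7 exons overlap Gm20427 on the same strand.

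**Figure D4:**
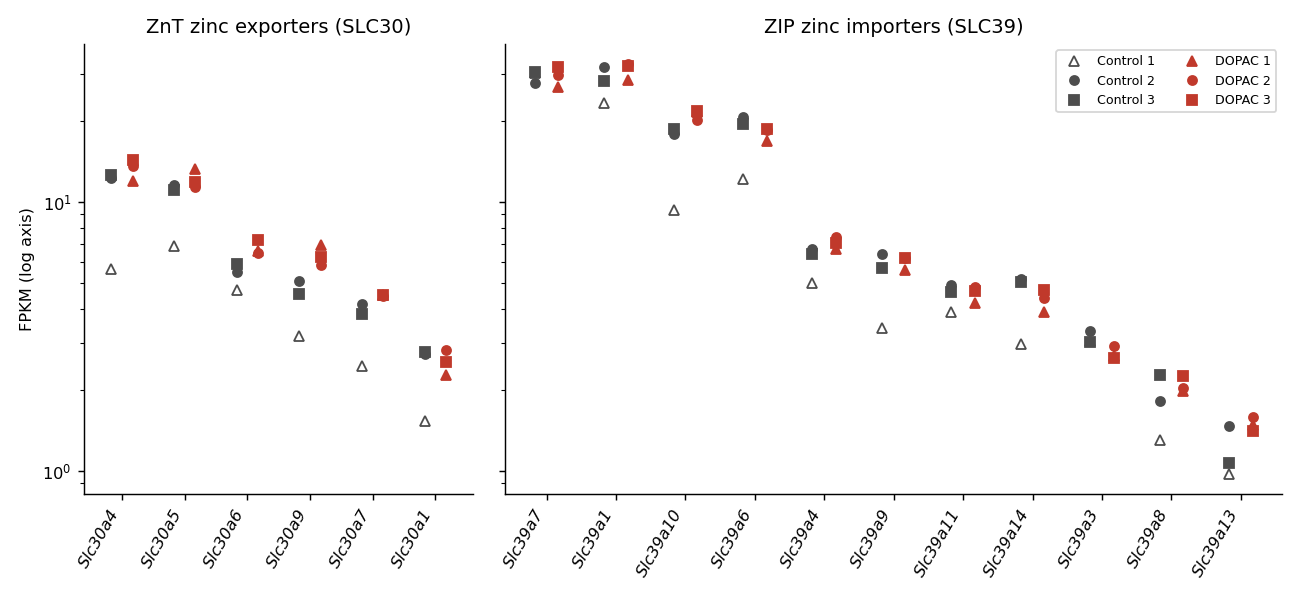
FPKM on a log axis of the 6 tested ZnT exporter genes and the 11 tested ZIP importer genes in every library, ordered by mean level; symbols as replicate numbers, grey for control, red for DOPAC, open for control 1. Slc39a10 (18.2 FPKM over all libraries) comes after Slc39a7 and Slc39a1 among the importers and Slc30a1 (2.45 FPKM) is last among the exporters; control 1 is the lowest library for 6 of 6 exporters and 9 of 11 importers.

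The list of 6 genes known to depend on MTF-1 outside the metallothioneins includes the members Slc30a1 and Slc39a10. MTF-1 induces the first and represses the second, so a shared sign was not to be expected and the counts only describe the list. Log2 fold changes were positive for 4 (62.1% of all genes) and negative for 2, with a median of 0.095. Without control replicate 1 there were 3 of each sign (47.3% of all genes positive), with a median of 0.0023. With all 6 libraries the groups did not overlap for 2 genes higher with DOPAC and 1 lower (12.4% and 4.8% of all genes). Without that library 2 were higher and 2 lower in this way (15.3% and 21.5% of all genes). Ndrg1, a stress gene also induced by low oxygen, measured 3.08, 5.71 and 2.76 FPKM in control replicates 1, 2 and 3 and 10.8, 9.36 and 8.70 FPKM in DOPAC replicates 1, 2 and 3. Its exons overlap the antisense genes Gm17035 and Gm2895. The log2 value of Ndrg1 was 1.18 (0.61 to 1.75; limma adjusted p = 0.801), and 1.08 without control replicate 1 (limma adjusted p = 0.295). Csrp1, a LIM-domain protein gene, was lower in every DOPAC library than in every control, as for 4.8% of all genes. Its means were 44.1 ± 4.24 FPKM in control and 35.3 ± 2.29 FPKM in DOPAC libraries (SD, n = 3 each). On the log2 scale Csrp1 differed by -0.31 (-0.62 to -0.0057; limma adjusted p = 0.801), or by -0.23 without control replicate 1 (limma adjusted p = 0.311).

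Copper is also bound by metallothioneins. Of 12 copper-handling genes 11 were tested and 0 passed. Values were positive for 5 (62.1% of all genes) and negative for 6, with a median of -0.046. Without control replicate 1 they were positive for 9 (47.3% of all genes) and negative for 2, with a median of 0.063. Slc31a1, the copper importer CTR1, measured 11.0, 13.3 and 13.5 FPKM in control replicates 1, 2 and 3 and 16.1, 16.1 and 16.2 FPKM in DOPAC replicates 1, 2 and 3. The DOPAC libraries lay above all controls, as for 12.4% of all genes, and close to each other. The log2 fold change of Slc31a1 was 0.34 (0.03 to 0.64; unadjusted p = 0.036, limma adjusted p = 0.801) and 0.25 without control replicate 1 (limma adjusted p = 0.295). Sco1, Atp7a and Sco2, which deliver or pump copper, had 0.30, 0.27 and -0.48, or 0.23, 0.12 and -0.29 without it. Sco2 exons overlap Tymp and Ncaph2.

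Glucocorticoid response genes, another set whose inducer also raises metallothioneins, gave 0 calls among 7 tested of 8. Of these 5 were positive (62.1% of all genes) and 2 negative with a median of 0.097. Without control replicate 1, 2 were positive (47.3% of all genes) and 5 negative with a median of -0.098. The values of Dusp1, Sgk1, Tsc22d3 and Nr3c1 were -0.29, -0.25, 0.24 and 0.29, and -0.27, -0.15, 0.28 and -0.018 without that library. Dusp1, a kinase phosphatase gene with antisense overlap by Ergic1, was lower in all 3 DOPAC libraries than in all 3 controls, as for 4.8% of all genes. Metal and oxidative stress genes gave 0 calls among 4 tested of 7. They had 2 positive (62.1% of all genes) and 2 negative values with a median of -0.042. All 4 were negative with a median of -0.16 without control replicate 1, where 47.3% of all genes were positive. Groups did not overlap for 1 of them, lower with DOPAC (4.8% of all genes). Without control replicate 1 this held for 3, all lower (21.5% of all genes). Hmox1, which metals and oxidants induce, was at 3.97 ± 0.112 and 3.69 ± 0.647 FPKM (SD, n = 3 each). It differed by -0.092 on the log2 scale, or by -0.11 without control replicate 1. Srxn1, Gclm and Txnrd1, of thiol defence, had -0.25, 0.10 and 0.0073, or -0.18, -0.14 and -0.28 without that library. Gclm exons overlap Gm6061 on the same strand and the antisense gene Gm17494.

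**Figure D5:**
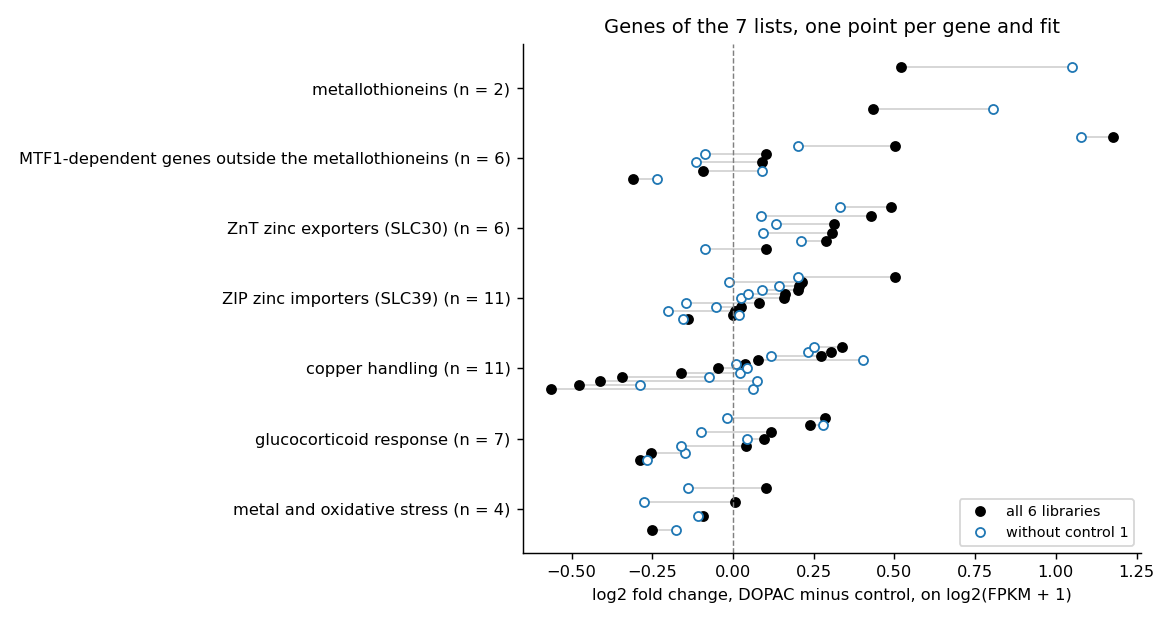
Log2 fold change, DOPAC minus control on log2(FPKM + 1), of each tested gene in the 7 lists, with all 6 libraries (filled) and without control 1 (open), joined by a line for each gene. The 2 metallothionein genes move up when control 1 is left out (to 0.81 and 1.05), while most zinc transporter genes move down.

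The genes whose levels followed each member most closely over the 6 libraries were listed by Pearson's r among named genes with at least 5 FPKM (6401 or 6402 genes), as a description of points that share each library's depth. Mt1 was followed most closely by the Gapdh pseudogenes Gapdh-ps16 and Gapdh-ps15 (r = 0.989 for both) and by Mt2 (0.980), or 0.987, 0.986 and 0.973 without control replicate 1. Reads of those pseudogenes are uncertain because they are near copies of Gapdh. For Mt2 the list was mt-Rnr1, the small mitochondrial ribosomal RNA (0.993), Gapdh-ps16 (0.982) and Gapdh-ps15 (0.980), and without control replicate 1 the values were 0.995, 0.981 and 0.970. Mtf1 was nearest to Ipcef1, Tatdn2 and Ogfod1 (0.997, 0.997 and 0.995, or 0.997, 0.994 and 0.981 without that library). Slc30a1 was nearest to Reep3, Zw10 and Ptpn11 (0.996, 0.996 and 0.995, or 0.980, 0.982 and 0.958 without it). Slc39a10 was nearest to Eif2s3x, Nfe2l2 and Orc3 (0.9998, 0.9995 and 0.9989, or 0.998, 0.996 and 0.987 without control replicate 1).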

How the data were processed

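The 6 libraries were grouped by library name, 3 control and 3 DOPAC; 1 sample title misspells the treatment, which its other labels give as DOPAC. Per the labels' protocols, TRIzol RNA was turned into full-length cDNA (SMART-Seq HT) and Nextera XT libraries, which do not mark strand. The submitters' processing notes name cutadapt 1.9, HISAT2 2.2.1 and mm10; estimator, annotation and gene filter are not given in the sources used. The authors deposited FPKM, per the file headers, which hold no counts, so depth is unknown; sums per library were 283818 to 316035. The authors' own log2 fold changes and p-values in the deposited table were not used for results. Over all genes their fold changes differed by at most 1e-09 from those on log2(FPKM + 1) with all 6 libraries, so the latter are no independent estimate.

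Tests used log2(FPKM + 1), which understates fold changes of low genes, and left out 288 genes with a mean under 1 FPKM. R 4.3.3 with limma 3.58.1 fitted DOPAC against control with a mean-variance trend over 10887 genes (Benjamini-Hochberg over all, threshold 0.05, 95% intervals), and was tested on simulated data. Exon lengths came from GENCODE M21 (11067 of 11175 identifiers). Members and lists were chosen with earlier results of these data known. Named were all members, in each list at most 4 genes by smallest p, and the 3 genes most correlated with each member; further list genes are named only to explain a count or a rank. Deviations from the group means correlated at 0.34, 0.16 and 0.28 between libraries numbered 1, 2 and 3, and at -0.335 to 0.24 between differently numbered ones, of which control 2 with DOPAC 3 (0.24) and control 3 with DOPAC 2 (0.19) exceeded the lowest same-numbered value. A fit with the replicate block was run beside the unblocked one; no label states a pairing. Alternatives were other pseudocounts, filters, scalings and variance models, library weights, the replicate block, and each library left out. Figures were drawn with matplotlib 3.10.9.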

Additional observations from a re-analysis of the deposited data

How the results depend on the processing

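Over 19 alternatives Mt1 kept a positive log2 fold change of 0.20 to 0.81, Mt2 of 0.24 to 1.05 and Slc39a10 of 0.19 to 0.67, and no member passed the adjusted threshold in any of them (limma adjusted p from 0.139). Over the fits that left out 1 library each the ranges were 0.20 to 0.81 for Mt1, 0.24 to 1.05 for Mt2, -0.11 to 0.093 for Mtf1, -0.086 to 0.20 for Slc30a1 and 0.20 to 0.67 for Slc39a10. Mtf1 changed sign with quantile normalization (-0.030), equal medians (-0.038), the length trend removed (-0.14), library weights (-0.064, whose fit stopped short of its convergence tolerance), without DOPAC replicate 2 (-0.025), without control replicate 1 (-0.11), and without it together with the replicate block (-0.066), DOPAC replicate 1 left out (-0.066) or the length trend removed (-0.059). Slc30a1 changed sign with the length trend removed (-0.0061), library weights (-0.011), without control replicate 1 (-0.086), and without it together with the replicate block (-0.031), DOPAC replicate 1 left out (-0.031) or the length trend removed (-0.050). The number of genes past the threshold, 0 with all 6 libraries, was 0 to 2 with 1 library left out (2 without control replicate 1), 2 with library weights, 2 without control replicate 1 and DOPAC replicate 1, and 1 without control replicate 1 and with the length trend removed. It was 0 without control replicate 1 with the replicate block. The cause of these changes was not tested. With all 6 libraries the replicate block gave Mt1 an interval of -0.10 to 0.97 and Mt2 of -0.092 to 1.13, and it changed no call of a member.

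Of 21 other named genes 18 kept their direction and their side of the threshold. Txnrd1 changed sign with quantile normalization (-0.025), equal medians (-0.051), the length trend removed (-0.14), library weights (-0.16), without DOPAC replicates 2 (-0.018) and 3 (-0.054), without control replicate 1 (-0.28, the other end of the range over single left-out libraries being 0.17), and without it with the replicate block (-0.19), with DOPAC replicate 1 left out (-0.19) or with the length trend removed (-0.23). Gclm did so with the length trend removed (-0.030), library weights (-0.081), without control replicate 1 (-0.14), and without it with the replicate block (-0.13), with DOPAC replicate 1 left out (-0.13) or with the length trend removed (-0.10). Nr3c1 did so without control replicate 1 (-0.018; up to 0.49 with another library left out). Mtf1, Slc30a1 and other genes with a mean under 5 FPKM had no value under that filter. The fits that left out 2 libraries, or left out control replicate 1 with the length trend removed, were chosen after seeing the data. With 3 libraries a group and FPKM alone, neither counting error nor a change smaller than these intervals can be resolved.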
